A study of Capra hircus with 9 samples.

Results

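The MC diet was compared with the LC diet in 6 of the 9 RNA sequencing libraries of a series on the rumen epithelium of goats. The members were taken by their titles, MC1, MC2 and MC3 against LC1, LC2 and LC3, and each gene named in the files entered by its name. All animals were goats (Capra hircus) aged 4 months, and the tissue was rumen epithelium in both groups. The groups differed by treatment, given as MC diet and LC diet, and the series says only that its 3 groups ate 3 kinds of concentrate. The labels do not spell out the letters, and they state no breed, sex, dose or feeding time. Whether each library is a separate animal is not stated either, so p-values measure only the spread between these samples, which may be technical. The 3 libraries of the remaining diet, HC, helped decide which genes were tested and served to estimate the spread between libraries. Their values stand beside some results as a description.

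The rumen is the largest forestomach of ruminants, where microbes ferment feed to acetate, propionate and butyrate. Its lining is a stratified squamous epithelium: basal cells divide, upper cells keratinize, and the cell layers between absorb the acids, exchange sodium, protons and bicarbonate, return urea to the lumen and turn butyrate into ketone bodies. Immune cells lie within and under the epithelium, and the rumen wall beneath holds connective tissue and smooth muscle.

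Values are FPKM, sequenced fragments scaled to transcript length and to the total of the library. Each mean is given ± SD of its diet (n = 3 libraries). A log2 change is the MC mean minus the LC mean of log2(FPKM + 1), given ± SE, and it understates changes of genes with low values. A gene is said to have risen or fallen in MC where limma's adjusted p was under 0.05. The basal keratin KRT5 stood at 3610.4 ± 792 FPKM in LC and 3979 ± 374 FPKM in MC, and the basal keratin KRT14 stood at 1336 ± 365 FPKM in LC and 1073 ± 34.1 FPKM in MC. Both markers of the labelled tissue were abundant in every library. The total FPKM of LC1, 755624, was the lowest of the 6 libraries, and the others had totals of 903006 to 1030724, while 11103 to 12009 genes reached 1 FPKM in a library. The first principal component of the 6 libraries held 62.3% of the variance and separated the diets. Over genes, which do not count as replicates, Pearson r between libraries was 0.965 to 0.988 within LC, 0.987 to 0.993 within MC and 0.937 to 0.9597 between the diets. Within LC the lowest r was between LC1 and LC3 and the highest between LC2 and LC3. The files hold no read counts, so the depth is unknown.

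One LC library stood apart in its smooth muscle markers. The summed FPKM of 25 smooth muscle markers was 3870, 2064 and 202 in LC1, LC2 and LC3, and 3939, 5450 and 1902 in MC1, MC2 and MC3. LC3 was far below the other 5 libraries, and in the HC libraries the sum was 303 to 411. In such bulk samples fewer cells of a type and less RNA per cell cannot be told apart. The intermediate filament desmin (DES) read 696, 428 and 1.44 FPKM in LC and 784, 1233 and 383 FPKM in MC, and the smooth muscle actin ACTG2 read 500.4, 194 and 1.42 FPKM in LC and 617, 739.7 and 231 FPKM in MC. By limma none of the 23 tested markers passed the test in the comparison of all libraries (1 were higher and 0 lower at an unadjusted p under 0.05), and their median log2 change was 1.24. Without LC3 that median was 0.14, with 0 markers past the test. Since LC3 was singled out for these very markers, these medians are descriptions. With LC1 left out, 3 were called higher.

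**Figure D1:**
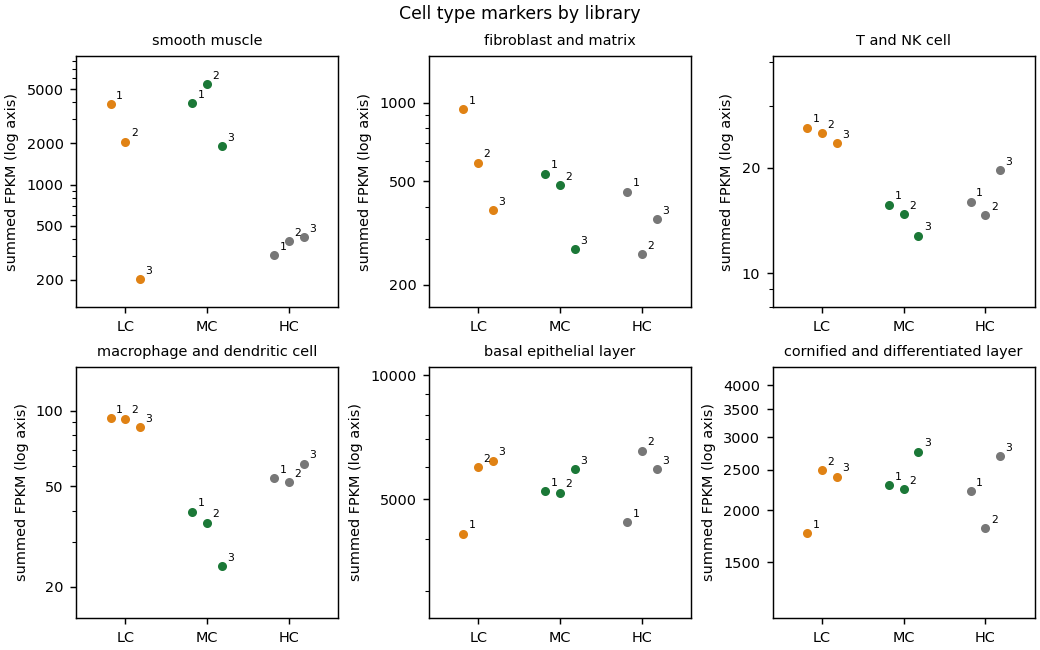
Summed FPKM of the marker genes of 6 cell types (log axis) in each LC, MC and HC library, 1 point per library with the library's number beside it. LC3 lies far below LC1 and LC2 for smooth muscle, and the LC libraries lie above the MC libraries for T and NK cells and for macrophages and dendritic cells.

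Of 11668 genes tested, 3894 differed between the diets (33.4%), 1896 of them higher in MC (16.2% of genes tested) and 1998 lower (17.1%). The libraries of the 2 diets did not overlap for 5501 genes (47.1%). The 20 largest rises and the 20 largest falls named below were picked among such genes, so their lack of overlap was set by that rule. Without LC3, 3330 genes passed the test (28.5%). The changes were mostly modest: the median absolute log2 change was 0.643 among the rises and 0.674 among the falls, and 325 rises and 431 falls reached 1 on the log2 scale. A log2 change of at least 2 was seen for 20 rises and 42 falls. Falls were the larger share among low genes: of 4035 genes with a mean under 5 FPKM over all 9 libraries, 11.6% rose and 19.9% fell, and of 1657 genes at 50 FPKM or more, 17.3% rose and 10.1% fell. The median log2 change of all genes was -0.0067. In the gene lists that follow, the shares of 16.2% and 17.1% are the background against which a count of rises or falls is to be read. Members low in 1 diet may have passed the filter on low values only through another diet. Counts in lists of low genes are therefore descriptions of the members that passed.

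**Figure D2:**
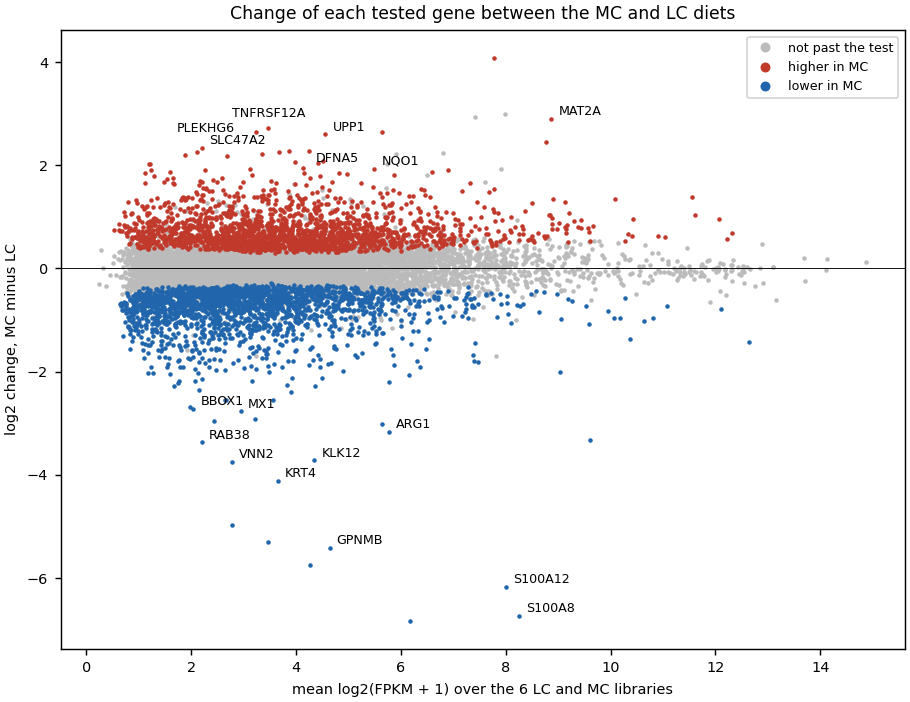
Log2 change in MC minus LC (vertical) against the mean of log2(FPKM + 1) over the 6 libraries (horizontal) for 11668 genes, with rises in red, falls in blue, genes not past the test in grey, and the genes with the largest changes named. The falls of S100A8, S100A12 and GPNMB reach below -5, MAT2A rises by 2.895, and the unnamed points beyond them include 3 genes known only by an identifier.

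Among genes with a symbol, the largest falls in MC were those of 2 genes on the same chromosome for calcium-binding proteins of neutrophils and inflamed epithelia. S100A8 (chromosome 3, 16018873 to 16019899) read 2044, 3754 and 4067 FPKM in LC and 28.7, 44.7 and 18.3 FPKM in MC. S100A12 (chromosome 3, 16038726 to 16040241) read 1501, 2483 and 2758 FPKM in LC and 35.3, 40.5 and 17.2 FPKM in MC. For both genes the lowest LC library was far above the highest MC library. S100A8 fell from 3288 ± 1089 to 30.6 ± 13.3 FPKM (log2 change -6.73 ± 0.38, adjusted p = 4.74e-06) and S100A12 fell from 2247 ± 661 to 31.03 ± 12.2 FPKM (log2 change -6.17 ± 0.38, adjusted p = 7.38e-06). Starts and ends come from the files, counted from 1, on a genome build not given in the sources used here. In HC, S100A8 read 48.1, 26.8 and 25.1 FPKM. Of the 10 tested S100 genes these 2 fell and 3 rose. S100A10, the partner of annexin A2, rose from 603 ± 88.3 to 982 ± 106 FPKM (log2 change 0.71 ± 0.17, adjusted p = 0.007002), and S100A14 rose from 61.3 ± 22.6 to 115 ± 7.77 FPKM (log2 change 0.98 ± 0.24, adjusted p = 0.00962). S100A2 rose from 1056 ± 412 to 1932 ± 149.7 FPKM (log2 change 0.96 ± 0.27, adjusted p = 0.0185), a call lost without MC2 (adjusted p = 0.0668). Of the neutrophil markers tested, the receptor CXCR2 did not pass the test (1.897 ± 0.148 FPKM in LC and 1.67 ± 0.413 FPKM in MC), and the gelatinase MMP9 rose from 1.38 ± 0.553 to 4.93 ± 0.709 FPKM (log2 change 1.34 ± 0.18, adjusted p = 2.15e-04). Summed over the 8 neutrophil markers, the FPKM was 3.44 to 5.56 in LC and 6.04 to 7.87 in MC, and MMP9, which rose, made up most of the sum in MC. Without MMP9, a split chosen after these values were seen, the sum of the other 7 was 2.69 to 3.75 in LC and 1.54 to 2.12 in MC, lower in every MC library. Between 0 and 2 of the 8 markers were not listed in an LC library and between 2 and 4 in an MC library. The part of these markers in the 2 falls of S100 genes was not tested.

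GPNMB, a transmembrane glycoprotein of melanosomes and lysosomes, was next among genes with a symbol. GPNMB (chromosome 4, 29668049 to 29695883) read 126, 152 and 219 FPKM in LC and 3.103, 2.77 and 2.58 FPKM in MC, and the diets were far apart. It fell from 166 ± 47.95 to 2.82 ± 0.262 FPKM (log2 change -5.41 ± 0.18, adjusted p = 9.40e-09), with 17.97 ± 1.99 FPKM in HC. RAB38, a GTPase of melanosome traffic, read 13.6, 14.2 and 13.4 FPKM in LC and 0.6403, 0.316 and 0.356 FPKM in MC. It fell from 13.7 ± 0.4096 to 0.437 ± 0.177 FPKM (log2 change -3.36 ± 0.15, adjusted p = 1.19e-07). Both are on the melanocyte list, and the remaining tested member of 3, the melanocyte transcription factor MITF, did not pass the test (log2 change 0.17 ± 0.15). The pigment genes PMEL and SLC45A2 were below the filter on low values and were not tested.

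Other large falls were of epithelial and metabolic genes. KRT4, a keratin of the upper layers of non-cornified squamous epithelia, read 31.6, 60.1 and 69.8 FPKM in LC and 1.65, 2.18 and 2.25 FPKM in MC. It fell from 53.8 ± 19.9 to 2.03 ± 0.331 FPKM (log2 change -4.11 ± 0.295, adjusted p = 1.51e-05), and 21.1 ± 7.09 FPKM was measured in HC. KLK12, a kallikrein protease of differentiated squamous cells, fell from 74.3 ± 17.2 to 4.703 ± 1.25 FPKM (log2 change -3.72 ± 0.23, adjusted p = 1.86e-06), while HC stood at 44.5 ± 11.04 FPKM. VNN2, a pantetheinase that releases cysteamine, fell from 24.4 ± 4.66 to 0.897 ± 0.445 FPKM (log2 change -3.75 ± 0.19, adjusted p = 3.00e-07). ARG1, the arginase that splits arginine into urea and ornithine, read 98.3, 183 and 237 FPKM in LC and 14.1, 18.6 and 19.2 FPKM in MC and fell from 173 ± 69.7 to 17.3 ± 2.81 FPKM (log2 change -3.17 ± 0.29, adjusted p = 4.15e-05). BBOX1, the last enzyme of carnitine synthesis, fell from 10.1 ± 3.69 to 0.611 ± 0.186 FPKM (log2 change -2.72 ± 0.24, adjusted p = 1.71e-05). PTGES, which makes prostaglandin E, fell from 30.2 ± 2.76 to 6.01 ± 3.21 FPKM (log2 change -2.25 ± 0.29, adjusted p = 3.45e-04). SH3RF2, SNX31, P3H2 and C28H10orf10 were also among the 20 largest falls of genes with a symbol, with log2 changes of -2.11, -2.18, -2.12 and -2.36. The last fall named by the rule was that of C2 (-2.02), and the first left out was that of ST6GALNAC2 (-2.01).

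The files also hold genes known only by an identifier, and 3 of them, chosen after their values were seen, changed by more than GPNMB or MAT2A. LOC102182273 read 635, 854 and 837 FPKM in LC and 7.31, 7.15 and 3.64 FPKM in MC, and it fell by more than S100A8 (log2 change -6.82 ± 0.27, adjusted p = 2.97e-07). LOC102182273 (chromosome 3, 16051595 to 16054238) lies close to S100A12 (16038726 to 16040241) and S100A8 on that chromosome. LOC100860781 read 102, 167 and 159 FPKM in LC and 2.09, 1.297 and 1.58 FPKM in MC and fell (log2 change -5.74 ± 0.41, adjusted p = 3.23e-05). LOC102176340 read 26.1, 72.1 and 76.5 FPKM in LC and 914, 922 and 862 FPKM in MC, and its rise was larger than that of MAT2A (log2 change 4.07 ± 0.33, adjusted p = 1.62e-05). The diets did not overlap for any of the 3, and what these genes encode is not given in the tables used here.

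**Figure D3:**
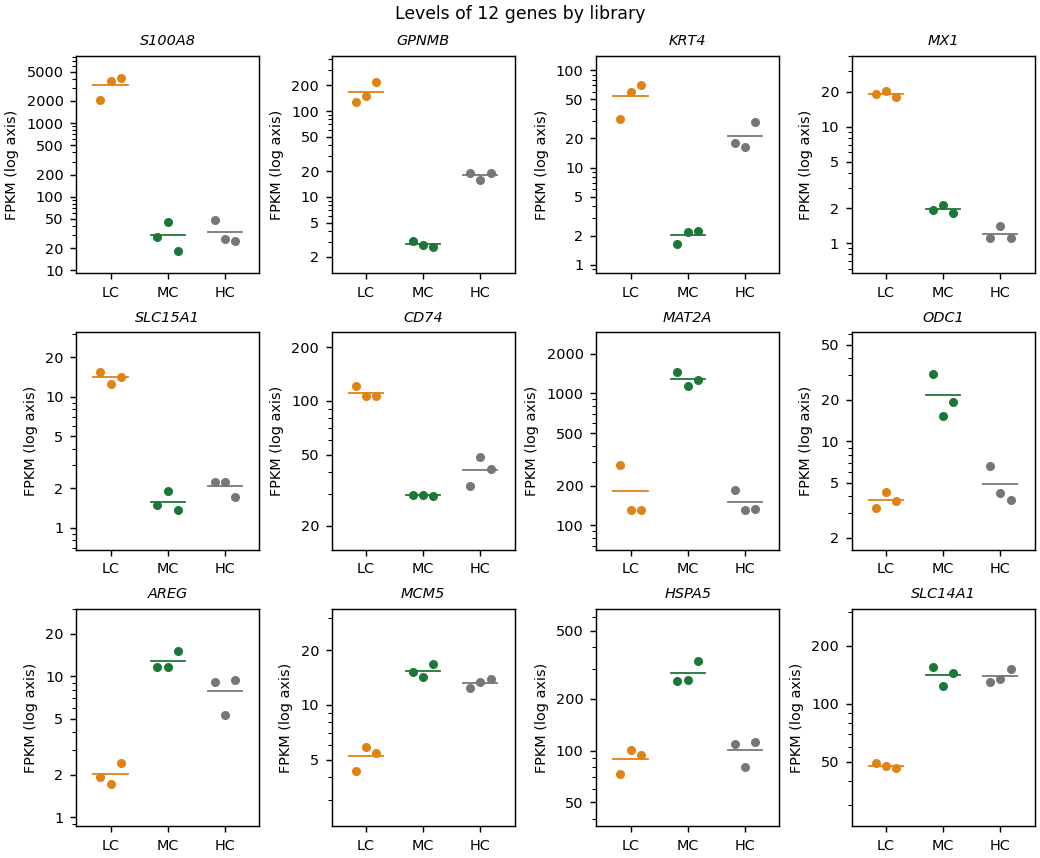
FPKM (log axis) of 12 genes in each library of the LC, MC and HC diets, 1 point per library with a bar at the diet's mean. For S100A8, GPNMB, KRT4, MX1, SLC15A1 and CD74 every LC point lies above every MC point, and for MAT2A, ODC1, AREG, MCM5, HSPA5 and SLC14A1 every MC point lies above every LC point.

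Genes of the interferon response, which block viruses and raise antigen display, were lower in MC. Of 29 tested members 0 rose and 17 fell (median log2 change -0.54), and leaving out any 1 library left 0 rises and 15 to 17 falls. MX1, an antiviral GTPase, read 19.1, 20.2 and 18.02 FPKM in LC and 1.93, 2.11 and 1.81 FPKM in MC and fell from 19.1 ± 1.07 to 1.95 ± 0.153 FPKM (log2 change -2.77 ± 0.12, adjusted p = 9.26e-08). The RNA sensor DHX58 fell from 18.7 ± 2.44 to 6.49 ± 0.664 FPKM (log2 change -1.39 ± 0.14, adjusted p = 3.52e-05), and IRF9, the DNA-binding part of the interferon-activated complex, fell from 18.99 ± 0.962 to 9.83 ± 0.649 FPKM (log2 change -0.88 ± 0.13, adjusted p = 4.23e-04). The antiviral enzyme RSAD2 read 3.098, 1.25 and 1.72 FPKM in LC and 0.284, 0.13995 and 0.0979 FPKM in MC and fell (log2 change -1.32 ± 0.21, adjusted p = 6.93e-04). PARP9 and LGALS3BP fell by log2 changes of -1.01 and -1.12. Not every member moved: STAT2, a subunit of that complex, and the kinase EIF2AK2 had log2 changes of -0.097 ± 0.14 and -0.082 ± 0.16 and did not pass the test.

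Antigen presentation showed 7 falls and 1 rise among 16 tested members (median -0.45). TAP1, which pumps peptides into the endoplasmic reticulum, read 12.9, 11.8 and 13.4 FPKM in LC and 2.87, 3.08 and 2.99 FPKM in MC and fell (log2 change -1.78 ± 0.11, adjusted p = 9.07e-07). Its partner TAP2 fell from 6.89 ± 0.678 to 1.53 ± 0.253 FPKM (log2 change -1.64 ± 0.13, adjusted p = 8.52e-06), and ERAP1, which trims those peptides, fell from 3.19 ± 0.207 to 0.976 ± 0.0167 FPKM (log2 change -1.08 ± 0.12, adjusted p = 7.81e-05). The immunoproteasome subunits PSMB8 and PSMB9 fell from 12.2 to 2.89 FPKM and from 12.4 to 4.86 FPKM (log2 changes -1.83 ± 0.25 and -1.26 ± 0.21, adjusted p = 4.15e-04 and 0.00112). The immunoproteasome subunit PSMB10 and the listed PSME1 and PSME2 did not pass the test, with log2 changes of 0.32, -0.12 and 0.19. CD74, the invariant chain of class II molecules, read 121, 107 and 106 FPKM in LC and 29.7, 29.9 and 29.4 FPKM in MC and fell from 111 ± 8.25 to 29.6 ± 0.251 FPKM (log2 change -1.87 ± 0.14, adjusted p = 5.44e-06). The light chain B2M of class I molecules did not pass the test (log2 change -0.52 ± 0.2002).

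The 20 largest falls of genes with a symbol included 3 complement genes, and complement was not examined as a list. C1R, a protease that starts the classical pathway, read 36.2, 34.7 and 29.6 FPKM in LC and 5.98, 5.83 and 4.92 FPKM in MC and fell (log2 change -2.39 ± 0.12, adjusted p = 2.97e-07). C3, the central component, fell from 6.18 ± 2.02 to 0.452 ± 0.192 FPKM (log2 change -2.27 ± 0.21, adjusted p = 1.55e-05), and C2, which joins the convertase that cuts C3, fell from 3.55 ± 0.543 to 0.118 ± 0.0663 FPKM (log2 change -2.02 ± 0.14, adjusted p = 3.67e-06). The rule that named these 3 genes required that the libraries of the 2 diets not overlap.

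Chemokines, cytokines and their receptors gave 13 falls and 2 rises among 29 tested members (median -0.401). CCL5, which draws T cells, read 6.199, 5.14 and 4.14 FPKM in LC and 0.764, 0.695 and 0.102 FPKM in MC and fell (log2 change -2.04 ± 0.19, adjusted p = 2.09e-05). CSF1, the growth factor of macrophages, fell from 6.45 ± 0.277 to 2.03 ± 0.156 FPKM (log2 change -1.297 ± 0.12, adjusted p = 1.55e-05). The pyrogenic cytokine IL1B fell from 1.51 ± 0.341 to 0.251 ± 0.0902 FPKM (log2 change -0.997 ± 0.16, adjusted p = 7.19e-04), its decoy receptor IL1R2 fell from 142 ± 7.75 to 83.1 ± 7.64 FPKM (log2 change -0.77 ± 0.13, adjusted p = 0.00101), and IL6R fell from 16.7 ± 0.819 to 9.09 ± 0.905 FPKM (log2 change -0.81 ± 0.12, adjusted p = 3.39e-04). IL18, IL33 and the receptor antagonist IL1RN had log2 changes of 0.26, -0.24 and -0.00047 and did not pass the test.

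Among Toll-like receptor and NF-kB genes 9 of 30 tested members fell and 4 rose. The sensors of bacterial lipoprotein and flagellin were lower: TLR2 fell from 20.98 ± 2.07 to 9.22 ± 0.911 FPKM (log2 change -1.105 ± 0.15, adjusted p = 2.07e-04) and TLR5 fell from 13.3 ± 2.03 to 6.16 ± 0.799 FPKM (log2 change -0.99 ± 0.14, adjusted p = 2.64e-04). The lipopolysaccharide receptor CD14 read 16.4, 16.9 and 20.4 FPKM in LC and 7.41, 7.43 and 8.44 FPKM in MC and fell (log2 change -1.11 ± 0.14, adjusted p = 1.53e-04). NOD2, an intracellular sensor of bacterial wall, fell from 11.9 ± 1.24 to 7.21 ± 1.002 FPKM (log2 change -0.65 ± 0.14, adjusted p = 0.00359). RELB, an NF-kB subunit, rose from 2.11 ± 0.205 to 3.91 ± 0.557 FPKM (log2 change 0.65 ± 0.13, adjusted p = 0.00245). The adaptor MYD88 and the subunit RELA did not pass the test, with log2 changes of 0.15 ± 0.13 and -0.057 ± 0.12.

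Epithelial defence showed 5 falls and 1 rise among 10 tested members, S100A8 and S100A12 included. PGLYRP4, which binds peptidoglycan, fell from 14.2 ± 2.03 to 4.37 ± 1.41 FPKM (log2 change -1.52 ± 0.19, adjusted p = 1.47e-04), and DUOXA2, which matures the peroxide-making oxidase DUOX2, fell from 14.6 ± 2.52 to 3.82 ± 1.02 FPKM (log2 change -1.71 ± 0.28, adjusted p = 0.00144). Moving the other way, the inducible nitric oxide synthase NOS2 rose from 6.55 ± 0.4896 to 15.9 ± 1.39 FPKM (log2 change 1.16 ± 0.19, adjusted p = 9.81e-04). Apoptosis and inflammatory cell death had 8 falls and 3 rises in 27 tested genes, with 5 falls without LC3. The caspase CASP1, which matures interleukin 1 beta, fell from 6.36 ± 1.48 to 1.17 ± 0.2901 FPKM (log2 change -1.75 ± 0.17, adjusted p = 2.98e-05), and the pore former GSDMD fell from 1.59 ± 0.787 to 0.362 ± 0.0993 FPKM (log2 change -0.89 ± 0.22, adjusted p = 0.00815). The gasdermin DFNA5 read 6.66, 8.64 and 7.6002 FPKM in LC and 42.8, 38.2 and 40.8 FPKM in MC and rose (log2 change 2.27 ± 0.13, adjusted p = 6.32e-07), with HC at 45.3 ± 4.43 FPKM.

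Markers of macrophages and dendritic cells and of T and NK cells moved with these groups. For macrophages and dendritic cells 8 of 9 tested markers fell and 0 rose (median -1.28), and the summed FPKM of the 17 markers named in the files was 85.99 to 93.3 in LC and 24.1 to 39.7 in MC. CSF1R, the receptor of CSF1, read 7.47, 6.57 and 5.39 FPKM in LC and 1.8004, 2.17 and 2.17 FPKM in MC and fell (log2 change -1.29 ± 0.13, adjusted p = 3.53e-05). LAPTM5, a lysosomal protein of leukocytes, fell from 21.1 to 6.24 FPKM (log2 change -1.62 ± 0.13, adjusted p = 7.36e-06), and C1QB, which macrophages make, fell from 9.73 ± 2.04 to 3.35 ± 1.51 FPKM (log2 change -1.35 ± 0.25, adjusted p = 0.00251). The macrophage lysosome protein CD68 did not pass the test (log2 change -0.41 ± 0.18).

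Of 7 tested T and NK cell markers 5 fell and 1 rose (median -1.18), and the summed FPKM of the 16 named in the files was 23.5 to 26.1 in LC and 12.8 to 15.7 in MC. CD3D, CD3G and IL2RG had MC means under 1 FPKM and passed the filter on low values through libraries of other diets. This can tilt the count and the median towards falls, while the sum over the 16 does not depend on that filter. CD3D and CD3G, subunits of the T cell receptor complex, fell from 1.68 to 0.182 FPKM and from 1.403 to 0.169 FPKM (log2 changes -1.18 ± 0.17 and -1.04 ± 0.15, adjusted p = 3.75e-04 and 2.87e-04). IL2RG, the shared cytokine receptor chain, read 4.28, 4.498 and 2.496 FPKM in LC and 0.7903, 0.425 and 0.409 FPKM in MC and fell (log2 change -1.61 ± 0.204, adjusted p = 1.52e-04). NKG7, a granule protein of cytotoxic cells, moved the other way and rose from 2.91 ± 0.1305 to 8.504 ± 0.639 FPKM (log2 change 1.28 ± 0.15, adjusted p = 9.47e-05). CD207, the langerin of Langerhans cells, read 3.54, 3.18 and 4.44 FPKM in LC and 0.531, 0.376 and 0.402 FPKM in MC and fell (log2 change -1.71 ± 0.15, adjusted p = 1.57e-05), while EPCAM, also on that list and made by epithelia, did not pass the test (log2 change 0.039 ± 0.14). Of 2 tested B and plasma cell markers, JCHAIN, the joining chain of secreted antibodies, fell from 2.92 ± 0.475 to 1.29 ± 0.359 FPKM (log2 change -0.78 ± 0.19, adjusted p = 0.00876), and DERL3 did not pass the test (log2 change 0.35 ± 0.15). The summed FPKM of the 9 B and plasma cell markers overlapped between the diets, at 6.34 to 8.47 in LC and 6.51 to 8.53 in MC. In each LC and MC library 0 to 3 of the macrophage markers and 0 to 2 of the T and NK cell markers were not listed. The part of these cell markers in the falls of interferon, antigen presentation and cytokine genes and of C1R, C2 and C3 was not tested.

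Among genes with a symbol the largest rise in MC was that of MAT2A, the enzyme that turns methionine into S-adenosylmethionine, the methyl donor of the cell. MAT2A (chromosome 11, 48854892 to 48861358) read 286, 132 and 131 FPKM in LC and 1445, 1142 and 1251 FPKM in MC. It rose from 183 ± 89.1 to 1279 ± 154 FPKM (log2 change 2.895 ± 0.28, adjusted p = 3.05e-05), while HC stood at 149.7 ± 30.99 FPKM. Genes of polyamine synthesis changed in both directions. ODC1, which makes putrescine, read 3.28, 4.25 and 3.69 FPKM in LC and 30.7, 15.2 and 19.4 FPKM in MC and rose (log2 change 2.21 ± 0.24, adjusted p = 9.14e-05). AMD1, which decarboxylates S-adenosylmethionine for spermidine synthesis, rose from 10.1 ± 1.09 to 45.96 ± 5.16 FPKM (log2 change 2.08 ± 0.14, adjusted p = 1.96e-06), and AZIN1, which keeps ODC1 from degradation, rose from 15.97 ± 1.31 to 28.7 ± 2.93 FPKM (log2 change 0.804 ± 0.12, adjusted p = 4.62e-04). SMS, which makes spermine at the end of the pathway and was chosen after its values were seen, fell from 12.98 ± 0.311 to 8.79 ± 0.357 FPKM (log2 change -0.52 ± 0.11, adjusted p = 0.00322). CBS, the entry to cysteine synthesis, rose from 15.99 ± 1.11 to 30.7 ± 2.09 FPKM (log2 change 0.8998 ± 0.13, adjusted p = 3.54e-04). GNMT, which uses up S-adenosylmethionine, fell from 22.9 ± 2.54 to 8.88 ± 1.07 FPKM (log2 change -1.27 ± 0.13, adjusted p = 3.53e-05). In all, 10 of 22 tested members rose and 5 fell, and the hydrolase AHCY, the regulatory subunit MAT2B and the antizyme OAZ1 did not pass the test, with log2 changes of -0.19, 0.00095 and 0.14.

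Growth signals changed in both directions. Of 27 tested growth factor genes 5 rose and 11 fell (median -0.38), with 3 rises without MC1 and 3 rises without MC2. AREG, a ligand of the EGF receptor, read 1.94, 1.73 and 2.41 FPKM in LC and 11.7, 11.7 and 15.1 FPKM in MC. EREG, another such ligand, read 0.839, 0.515 and 0.392 FPKM in LC and 5.36, 4.07 and 4.95 FPKM in MC. AREG rose by a log2 change of 2.19 ± 0.19 (adjusted p = 1.25e-05) and EREG by 1.88 ± 0.18 (adjusted p = 2.54e-05). The receptors ERBB2, FGFR2 and MET fell from 78.1 to 32.1 FPKM, from 18.4 to 7.08 FPKM and from 4.09 to 1.48 FPKM (log2 changes -1.25 ± 0.16, -1.26 ± 0.12 and -1.04 ± 0.14, adjusted p = 1.28e-04, 1.94e-05 and 2.10e-04). TGFB1, which restrains epithelial growth, fell from 14.4 ± 2.65 to 6.796 ± 0.138 FPKM (log2 change -0.97 ± 0.14, adjusted p = 3.34e-04), and the binding protein IGFBP5 fell from 24.4 ± 5.78 to 11.8 ± 1.55 FPKM (log2 change -0.97 ± 0.18, adjusted p = 0.001702). IGFBP3 did not pass the test (44.4 ± 17.5 FPKM in LC and 19.8 ± 8.08 FPKM in MC). BMP6, a growth factor that shares its locus in the files with TXNDC5 and so is uncertain, rose from 1.49 ± 0.189 to 8.39 ± 1.198 FPKM (log2 change 1.91 ± 0.14, adjusted p = 3.96e-06).

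Among the growth response genes 7 of 22 rose and 4 fell. FOSL1, a subunit of the AP-1 transcription factor, read 0.0511, 0.1702 and 0.241 FPKM in LC and 4.27, 3.02 and 3.899 FPKM in MC and rose (log2 change 2.03 ± 0.15, adjusted p = 4.98e-06). FOSB rose from 0.111 ± 0.113 to 1.71 ± 0.0633 FPKM (log2 change 1.29 ± 0.14, adjusted p = 5.28e-05), FOS rose from 9.65 ± 2.17 to 16.7 ± 1.83 FPKM (log2 change 0.75 ± 0.16, adjusted p = 0.00366), and FOSL2 fell from 103 ± 7.19 to 55.3 ± 5.51 FPKM (log2 change -0.88 ± 0.13, adjusted p = 4.16e-04). The partner JUN, the regulator EGR1 and MYC did not pass the test, with log2 changes of -0.071, 0.0601 and -0.000904. TNFRSF12A, a receptor that growth factors induce, read 4.49, 3.18 and 2.497 FPKM in LC and 31.9, 24.8 and 26.04 FPKM in MC and rose (log2 change 2.72 ± 0.19, adjusted p = 2.64e-06). UPP1, which cleaves uridine, read 6.95, 10.6 and 8.42 FPKM in LC and 70.3, 48.2 and 54.1 FPKM in MC and rose (log2 change 2.598 ± 0.21, adjusted p = 8.00e-06). TES, a focal adhesion protein, and PLEKHG6, an activator of small GTPases, rose from 7.89 to 33.2 FPKM and from 2.85 to 22.8 FPKM (log2 changes 1.94 ± 0.11 and 2.64 ± 0.16, adjusted p = 6.32e-07 and 8.25e-07).

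Genes of DNA replication were higher in MC: 31 of 38 tested members rose and 0 fell (median 0.8005), and 28 to 31 rose when any 1 library was left out. MCM5, a subunit of the helicase that opens DNA, read 4.31, 5.89 and 5.42 FPKM in LC and 15.2, 14.2 and 16.8 FPKM in MC. MCM6, another subunit, read 6.92, 6.99 and 6.34 FPKM in LC and 19.3, 18.4 and 17.5 FPKM in MC. MCM5 rose by 1.41 ± 0.13 (adjusted p = 1.51e-05) and MCM6 by 1.32 ± 0.11 (adjusted p = 9.00e-06). UHRF1, which guides DNA methylation to new strands, rose from 1.93 ± 0.0753 to 8.74 ± 1.25 FPKM (log2 change 1.72 ± 0.14, adjusted p = 7.78e-06), and TYMS, which makes thymidylate, rose from 2.7995 ± 0.266 to 9.36 ± 1.01 FPKM (log2 change 1.45 ± 0.15, adjusted p = 3.47e-05). The ligase LIG1 and the methyltransferase DNMT1 did not pass the test, with log2 changes of 0.199 ± 0.15 and 0.23 ± 0.15.

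Genes of mitosis followed, with 23 of 29 tested members higher and 1 lower (median 0.6995). CCNB1, the cyclin of mitotic entry, read 2.41, 2.41 and 3.02 FPKM in LC and 7.196, 7.79 and 7.17 FPKM in MC and rose (log2 change 1.22 ± 0.12, adjusted p = 2.37e-05). ANLN, which builds the contractile ring, rose from 1.57 ± 0.217 to 4.75 ± 0.247 FPKM (log2 change 1.17 ± 0.13, adjusted p = 6.92e-05), CKS2 rose from 5.96 ± 1.87 to 18.6 ± 2.899 FPKM (log2 change 1.52 ± 0.19, adjusted p = 1.38e-04), and CDC20, which activates the anaphase ligase, rose from 1.94 ± 0.1505 to 4.77 ± 0.967 FPKM (log2 change 0.96 ± 0.14, adjusted p = 3.43e-04). MKI67, the common marker of cycling cells, read 0.632, 1.01 and 1.13 FPKM in LC and 1.403, 1.61 and 2.25 FPKM in MC and did not pass the test (log2 change 0.51 ± 0.19, adjusted p = 0.0552). Many mitosis genes were low: where genes had to reach 5 FPKM in at least 3 libraries, 6 were called higher and 1 lower. Members below that level left the test, so these counts cannot be set against the 29.

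Nucleolar genes that build ribosomes rose widely: 38 of 56 tested members rose and 0 fell (median 0.67), with 3 falls without LC1. LTV1, which matures the small subunit, read 3.25, 3.42 and 3.64 FPKM in LC and 11.5, 12.3 and 13.02 FPKM in MC and rose (log2 change 1.58 ± 0.13, adjusted p = 8.83e-06). NIP7 rose from 6.07 ± 1.58 to 20.99 ± 2.36 FPKM (log2 change 1.66 ± 0.17, adjusted p = 3.75e-05), the helicase DDX21 rose from 12.7 ± 1.63 to 30.03 ± 2.499 FPKM (log2 change 1.19 ± 0.12, adjusted p = 3.47e-05), and GAR1, a protein of the particles that modify ribosomal RNA, rose from 9.82 ± 1.66 to 24.2 ± 0.227 FPKM (log2 change 1.23 ± 0.12, adjusted p = 3.00e-05). NOLC1, a nucleolar scaffold, rose from 13.9 ± 2.401 to 38.7 ± 7.17 FPKM (log2 change 1.41 ± 0.17, adjusted p = 1.25e-04). NCL and NPM1, abundant nucleolar proteins, did not pass the test (log2 changes 0.41 ± 0.17 and -0.24 ± 0.18). The 74 tested genes of the ribosome's own proteins gave 0 rises and 0 falls by limma with all libraries (median -0.049), and 28 falls without LC1. At an unadjusted p under 0.05 limma put 0 of them higher and 1 lower with all libraries. RPS6 and RPLP0 had log2 changes of 0.15 ± 0.24 and -0.21 ± 0.22.

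Other genes of protein synthesis and splicing changed in part. Of 26 tested genes of tRNA synthetases and of the scaffold proteins of their complex 12 rose and 1 fell (median 0.32). EEF1E1, a scaffold of the synthetase complex, rose from 5.39 ± 0.787 to 15.5 ± 1.13 FPKM (log2 change 1.37 ± 0.12, adjusted p = 1.29e-05), and GARS, the glycine enzyme, rose from 28.6 ± 1.17 to 50.8 ± 5.46 FPKM (log2 change 0.805 ± 0.13, adjusted p = 8.28e-04). Initiation factors gave 9 rises and 5 falls of 36, with 3 falls without MC1, 2 falls without MC2, 2 falls without MC3, 9 falls without LC1, 2 falls without LC2 and 2 falls without LC3. EIF4E, which binds the cap of messenger RNA, rose from 25.8 ± 2.26 to 50.6 ± 7.38 FPKM (log2 change 0.94 ± 0.18, adjusted p = 0.00206). EIF5B rose from 15.6 ± 0.964 to 28.7 ± 1.77 FPKM (log2 change 0.84 ± 0.11, adjusted p = 1.94e-04) and EIF2S3, part of the factor that carries the initiator tRNA, fell from 103 ± 9.94 to 62.1 ± 5.14 FPKM (log2 change -0.72 ± 0.13, adjusted p = 0.00154). Splicing factors gave 23 rises and 4 falls of 63 (median 0.26), with 1 fall without MC1, 2 falls without MC2 and 2 falls without MC3. SRSF7 read 32.3, 30.6 and 30.4 FPKM in LC and 93.3, 90.5 and 78.02 FPKM in MC and rose (log2 change 1.46 ± 0.13, adjusted p = 1.25e-05), and SRSF3 rose from 31.6 ± 2.65 to 76.9 ± 10.97 FPKM (log2 change 1.25 ± 0.15, adjusted p = 9.37e-05).

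**Figure D4:**
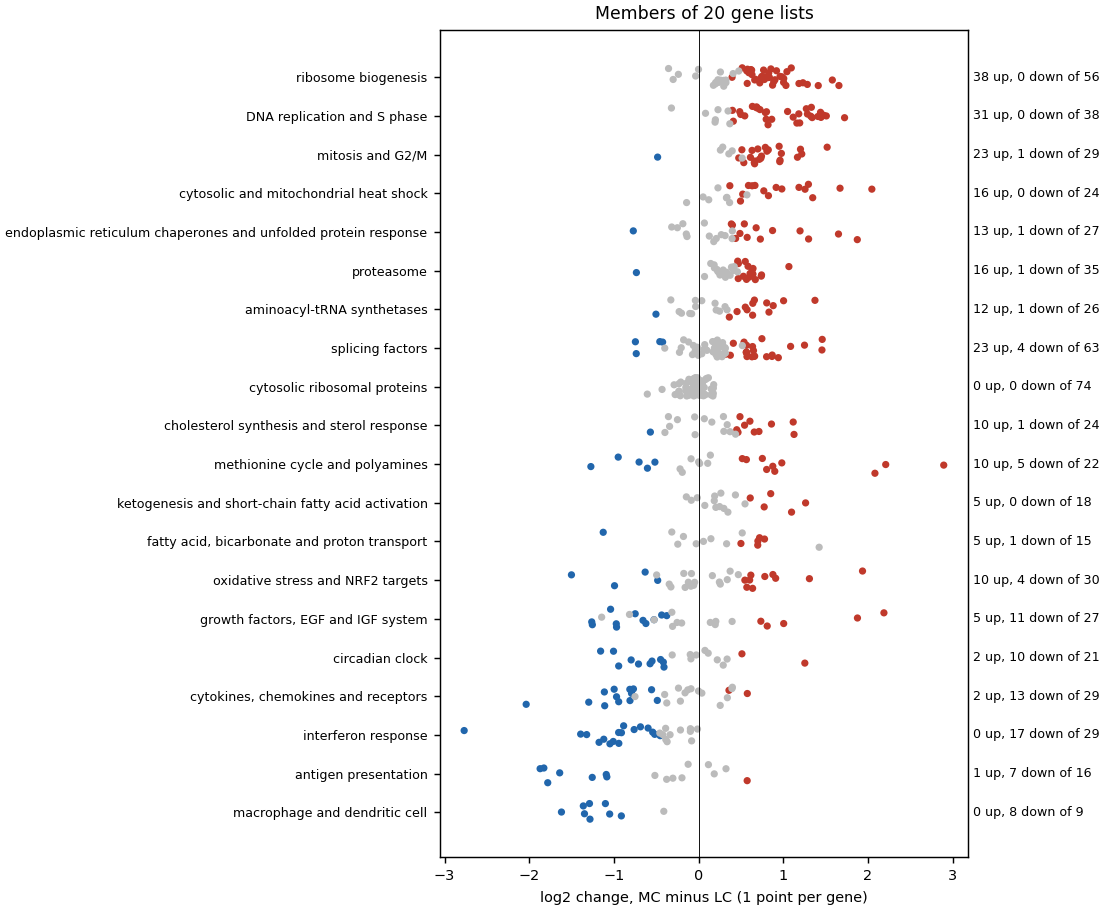
Log2 change in MC minus LC of each tested member (1 point per gene) in 20 gene lists, with rises in red, falls in blue and genes not past the test in grey, and the counts of rises and falls out of the members tested at the right. Ribosome biogenesis, DNA replication, mitosis and heat shock genes lie mostly to the right of 0, and interferon, antigen presentation and macrophage genes lie mostly to the left.

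Some chaperone genes rose in MC and others did not pass the test. In the endoplasmic reticulum, 13 of 27 tested members rose and 1 fell (median 0.396), with 7 rises without MC3. HSPA5, the main chaperone of that compartment, read 72.7, 100.3 and 94.7 FPKM in LC and 255, 257 and 335 FPKM in MC and rose (log2 change 1.65 ± 0.19, adjusted p = 6.90e-05). MANF, a secreted partner of HSPA5, rose from 49.5 ± 7.69 to 183 ± 11.8 FPKM (log2 change 1.87 ± 0.17, adjusted p = 1.83e-05), and the disulfide isomerase PDIA6 rose from 71.005 ± 5.601 to 131 ± 12.7 FPKM (log2 change 0.87 ± 0.14, adjusted p = 6.34e-04). Among the regulators of the stress response, XBP1, ATF6 and EIF2AK3 did not pass the test (log2 changes 0.31 ± 0.14, 0.18 ± 0.12 and 0.069 ± 0.12). DDIT3, a transcription factor of prolonged stress, shares its locus with another gene, was chosen after its values were seen and fell from 13.3 ± 3.01 to 7.38 ± 1.87 FPKM (log2 change -0.77 ± 0.18, adjusted p = 0.00697).

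Of 24 tested heat shock genes 16 rose and 0 fell (median 0.61). CRYAB, a small heat shock protein, read 10.9, 9.87 and 7.96 FPKM in LC and 45.7, 43.99 and 37.8 FPKM in MC and rose (log2 change 2.05 ± 0.14, adjusted p = 1.97e-06). HSPH1 rose from 13.6 ± 3.12 to 45.01 ± 5.73 FPKM (log2 change 1.67 ± 0.17, adjusted p = 3.47e-05), and the co-chaperone DNAJA1 rose from 43.8 ± 5.62 to 105 ± 2.69 FPKM (log2 change 1.26 ± 0.14, adjusted p = 7.08e-05). HSPA8, the constant chaperone of the cytosol, was chosen after its values were seen and rose from 301 ± 48.2 to 762 ± 45.2 FPKM (log2 change 1.35 ± 0.17, adjusted p = 1.40e-04). The regulator HSF1 and HSP90AB1 did not pass the test (log2 changes -0.14 ± 0.15 and 0.23 ± 0.18). The chaperonin CCT and prefoldin had 4 rises and 0 falls among 14, with 2 rises without MC1, 2 rises without MC2, 2 rises without MC3, 2 rises without LC1 and 7 rises without LC3. CCT5 rose from 45.7 ± 5.04 to 113 ± 9.3001 FPKM (log2 change 1.297 ± 0.14, adjusted p = 5.34e-05). Of 35 proteasome subunits without those of the immunoproteasome 16 rose and 1 fell (median 0.42). PSMA5 rose from 88.7 ± 19.6 to 184 ± 7.67 FPKM (log2 change 1.07 ± 0.17, adjusted p = 5.75e-04) and PSMD7 rose from 40.2 ± 3.11 to 67.7 ± 1.89 FPKM (log2 change 0.74 ± 0.12, adjusted p = 6.42e-04). With FPKM scaled to equal sums 25 proteasome subunits rose.

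Genes of oxidative stress and targets of the regulator NFE2L2, listed together, gave 10 rises and 4 falls of 30 (median 0.204). Some of these rises were of pentose phosphate enzymes, which do not remove oxidants themselves. There were 6 rises without MC1, 2 falls without MC2 and 2 falls without MC3. NQO1, a quinone reductase, read 14.8, 24.3 and 29.4 FPKM in LC and 92.4, 82.8 and 86.3 FPKM in MC and rose (log2 change 1.94 ± 0.197, adjusted p = 3.40e-05). GCLC, the first enzyme of glutathione synthesis, rose from 5.53 ± 0.579 to 15.2 ± 2.37 FPKM (log2 change 1.31 ± 0.13, adjusted p = 2.93e-05), and SRXN1 rose from 11.8 ± 0.781 to 18.6 ± 0.545 FPKM (log2 change 0.62 ± 0.11, adjusted p = 0.00118). HMOX1, which breaks down heme, went the other way: it read 50.2, 46.2 and 35.8 FPKM in LC and 15.8, 12.1 and 16.8 FPKM in MC and fell (log2 change -1.501 ± 0.19, adjusted p = 1.74e-04). The regulator NFE2L2 and its inhibitor KEAP1 did not pass the test, with log2 changes of -0.0898 ± 0.11 and -0.17 ± 0.12. TIGAR, which lowers glycolytic flux, rose from 3.45 ± 0.443 to 16.01 ± 2.11 FPKM (log2 change 1.93 ± 0.14, adjusted p = 3.96e-06).

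Drug and retinoid genes gave 6 rises and 7 falls of 21, with 3 rises without MC1 and 3 rises without MC3. SLC47A2, an exporter of organic cations, read 1.59, 0.874 and 0.793 FPKM in LC and 9.27, 9.28 and 9.58 FPKM in MC and rose (log2 change 2.33 ± 0.15, adjusted p = 1.86e-06). EPHX2, which hydrolyses epoxides of fatty acids, rose from 6.88 ± 1.74 to 31.3 ± 1.79 FPKM (log2 change 2.06 ± 0.17, adjusted p = 8.42e-06). DHRS3, which turns retinal back into retinol, fell from 26.7 ± 4.03 to 8.198 ± 0.771 FPKM (log2 change -1.58 ± 0.15, adjusted p = 2.26e-05). The retinoic acid receptors split: RARG fell from 25.8 ± 0.869 to 11.7 ± 1.27 FPKM (log2 change -1.08 ± 0.12, adjusted p = 5.14e-05) and RARA rose from 5.39 ± 0.214 to 11.03 ± 1.401 FPKM (log2 change 0.91 ± 0.12, adjusted p = 1.80e-04).

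For ketogenesis and the activation and use of short-chain fatty acids, listed together, 5 of 18 tested genes rose and 0 fell (median 0.28), with 3 rises without MC3. BDH1, which turns acetoacetate into 3-hydroxybutyrate, read 312, 509.9 and 484 FPKM in LC and 769, 693 and 852 FPKM in MC and rose (log2 change 0.85 ± 0.197, adjusted p = 0.00631). ACADSB, an acyl-CoA dehydrogenase of short branched chains, rose from 38.3 ± 4.62 to 82.6 ± 2.48 FPKM (log2 change 1.098 ± 0.13, adjusted p = 8.98e-05). ACAT1 and OXCT1 did not pass the test (log2 changes -0.086 ± 0.16 and 0.074 ± 0.32). In the tricarboxylic acid cycle 4 of 27 rose and 0 fell, with 2 falls without LC1. The list of glycolysis and lactate genes, called glycolysis genes below, also holds regulators such as PDK1. It gave 0 rises and 5 falls of 21 (median -0.304). These falls were of such regulators as well as of enzymes of the pathway, so they do not describe the pathway alone. There were 3 falls without MC1, 3 falls without MC2, 10 falls without LC1, 3 falls without LC2 and 3 falls without LC3. PDK1, which shuts pyruvate dehydrogenase, fell from 18.5 ± 1.26 to 9.45 ± 0.826 FPKM (log2 change -0.904 ± 0.12, adjusted p = 2.07e-04). Of 40 nuclear genes of the respiratory chain 2 rose and 1 fell, with 12 falls without LC1. All 40 bear symbols of complex I or ATP synthase subunits. The rest of the 59 genes listed for the chain were not found by name, so its other complexes were not covered.

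Transport of acids and bases gave 5 rises and 1 fall of 15 (median 0.33). SLC16A1, a carrier of ketone bodies and other small monocarboxylates, read 147, 181 and 217 FPKM in LC and 326, 278 and 288 FPKM in MC and rose (log2 change 0.72 ± 0.17, adjusted p = 0.00618). The sodium-proton exchanger SLC9A2 rose from 34.8 ± 1.098 to 60.998 ± 11.3 FPKM (log2 change 0.78 ± 0.18, adjusted p = 0.00563), and the carbonic anhydrase CA12 rose from 216 ± 28.98 to 352 ± 48.5 FPKM (log2 change 0.7005 ± 0.17, adjusted p = 0.00814). The sulfate carrier SLC26A2 fell from 53.7 ± 6.48 to 24.002 ± 2.42 FPKM (log2 change -1.13 ± 0.13, adjusted p = 8.17e-05). The sodium-proton exchanger SLC9A3 and the chloride-bicarbonate exchanger SLC26A3 did not pass the test (log2 changes 0.058 ± 0.22 and 0.33 ± 0.38). With LC3 as the only LC library, no member of the list was called higher.

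Urea, water and ion genes gave 6 rises and 2 falls of 18. SLC14A1, the urea transporter of the rumen epithelium, read 49.5, 47.5 and 46.6 FPKM in LC and 155, 124 and 144 FPKM in MC and rose (log2 change 1.53 ± 0.13, adjusted p = 1.31e-05), and HC stood at 139 ± 11.5 FPKM. AQP3, a channel for water and glycerol, rose from 92.9 ± 7.899 to 183 ± 25.1 FPKM (log2 change 0.97 ± 0.16, adjusted p = 8.23e-04). The potassium channel KCNK1 rose from 4.74 ± 0.0543 to 11.1 ± 1.17 FPKM (log2 change 1.07 ± 0.13, adjusted p = 8.62e-05). FXYD3, a regulator of the sodium pump, fell from 1628 ± 255 to 829 ± 16.2 FPKM (log2 change -0.96 ± 0.18, adjusted p = 0.00192).

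Uptake of peptides, sugars and amino acids gave 3 rises and 6 falls of 17. SLC15A1, the carrier of small peptides, read 15.5, 12.5 and 14.2 FPKM in LC and 1.48, 1.898 and 1.36 FPKM in MC and fell (log2 change -2.55 ± 0.13, adjusted p = 4.04e-07). The sodium-glucose carrier SLC5A1, from the panel of epithelial genes, fell from 31.2 ± 1.52 to 16.8 ± 2.33 FPKM (log2 change -0.86 ± 0.18, adjusted p = 0.00366), and the glucose carrier SLC2A1 did not pass the test (log2 change -0.027 ± 0.12). SLC7A5 and SLC7A1, carriers of large neutral and of cationic amino acids, rose from 1.57 to 7.31 FPKM and from 2.59 to 6.16 FPKM (log2 changes 1.68 ± 0.14 and 0.99 ± 0.15, adjusted p = 1.17e-05 and 4.61e-04). SLC6A14, a broad amino acid carrier, fell from 2.69 ± 0.857 to 0.409 ± 0.155 FPKM (log2 change -1.37 ± 0.21, adjusted p = 5.34e-04).

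Cholesterol synthesis gave 10 rises and 1 fall of 24 (median 0.35), with 6 rises without MC1, 6 rises without MC3 and 3 falls without LC1. SQLE, which makes squalene epoxide, read 16.3, 17.1 and 22.9 FPKM in LC and 32.1, 26.2 and 31.6 FPKM in MC and rose (log2 change 0.66 ± 0.16, adjusted p = 0.00871), and NSDHL, which acts later in the pathway, rose from 21.1 ± 1.62 to 35.2 ± 2.99 FPKM (log2 change 0.71 ± 0.12, adjusted p = 7.67e-04). Fatty acid synthesis and storage gave 4 rises and 5 falls of 24. FABP5, the fatty acid carrier of keratinizing epithelia, rose from 699 ± 183 to 1740.02 ± 92.7 FPKM (log2 change 1.35 ± 0.2001, adjusted p = 4.25e-04), the desaturase SCD rose from 2.77 ± 0.735 to 7.99 ± 2.52 FPKM (log2 change 1.23 ± 0.22, adjusted p = 0.00153), and PLIN2, which coats lipid droplets, fell from 129 ± 22.8 to 62.3 ± 8.68 FPKM (log2 change -1.03 ± 0.17, adjusted p = 7.39e-04). Fatty acid oxidation gave 3 rises and 7 falls of 28, among them EHHADH, a peroxisomal enzyme, which fell from 15.5 ± 1.44 to 8.39 ± 0.818 FPKM (log2 change -0.81 ± 0.12, adjusted p = 3.37e-04), and CRAT, the carnitine acetyltransferase, which rose from 22.1 ± 3.27 to 45.9 ± 7.42 FPKM (log2 change 1.02 ± 0.16, adjusted p = 5.25e-04). ACOT7, a thioesterase of long acyl-CoA, and MFSD2A, a carrier of lysophospholipids, rose from 4.91 to 27.1 FPKM and from 0.732 to 6.97 FPKM (log2 changes 2.25 ± 0.13 and 2.21 ± 0.17, adjusted p = 8.41e-07 and 5.38e-06).

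Markers of the epithelial layers moved in both directions. Of 14 tested markers of the basal layer 1 rose and 3 fell. ITGA3, a laminin receptor, rose from 4.33 ± 0.3803 to 10.5 ± 0.325 FPKM (log2 change 1.11 ± 0.13, adjusted p = 9.98e-05), and COL17A1, a collagen of hemidesmosomes, fell from 197 ± 15.6 to 115 ± 17.8 FPKM (log2 change -0.78 ± 0.18, adjusted p = 0.006202). The master regulator TP63 did not pass the test (log2 change -0.36 ± 0.13). Of 20 tested markers of the cornified and differentiated layer 3 rose and 6 fell. TGM1, which crosslinks the cornified envelope, read 129, 180.3 and 167 FPKM in LC and 308, 299 and 400.3 FPKM in MC and rose (log2 change 1.08 ± 0.203, adjusted p = 0.00197). KRT80 rose from 35.7 ± 2.597 to 87.1 ± 11.4 FPKM (log2 change 1.26 ± 0.19, adjusted p = 4.40e-04), the envelope protein EVPL fell from 63.9 ± 2.94 to 34.4 ± 5.996 FPKM (log2 change -0.89 ± 0.15, adjusted p = 0.00104), and CNFN, another envelope protein, fell from 37.2 ± 15.1 to 9.34 ± 3.602 FPKM (log2 change -1.88 ± 0.32, adjusted p = 0.00206). ALOX12B, a lipoxygenase of the skin barrier, fell from 2.44 ± 0.107 to 0.266 ± 0.0763 FPKM (log2 change -1.44 ± 0.17, adjusted p = 7.70e-05), with 6.57 ± 1.88 FPKM in HC. The envelope precursor IVL and the regulator KLF4 did not pass the test (log2 changes 0.57 ± 0.25 and 0.32 ± 0.14).

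Tight junction genes gave 5 rises and 2 falls of 26, with 2 rises without MC3 and 3 rises without LC1. CLDN7 rose from 2.23 ± 0.683 to 5.36 ± 0.558 FPKM (log2 change 0.99 ± 0.16, adjusted p = 7.23e-04) while the claudin CLDN23 fell from 7.22 ± 1.53 to 3.11 ± 0.2099 FPKM (log2 change -0.99 ± 0.15, adjusted p = 5.76e-04), and CLDN1, CLDN4, OCLN and TJP1 did not pass the test, with log2 changes of 0.011, 0.37, 0.18 and -0.16. Desmosome, adherens and gap junction genes gave 2 rises and 5 falls of 25, with 3 falls without MC1, 2 falls without MC2 and 3 falls without LC3. The connexins GJB5 and GJB6 fell from 7.54 to 3.02 FPKM and from 3.203 to 1.07 FPKM (log2 changes -1.08 ± 0.18 and -1.02 ± 0.198, adjusted p = 0.00104 and 0.00224).

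Among serine proteases and their inhibitors 4 of 18 rose and 3 fell, with 2 rises without MC2. The 3 falls were all kallikreins: KLK13 fell from 1.63 ± 0.247 to 0.277 ± 0.0212 FPKM (log2 change -1.04 ± 0.17, adjusted p = 7.98e-04) and KLK14 fell from 5.36 ± 1.13 to 1.33 ± 0.729 FPKM (log2 change -1.49 ± 0.26, adjusted p = 0.00165), beside KLK12 above. SERPINB11, an inhibitor family member, read 4.77, 5.87 and 6.15 FPKM in LC and 30.2, 29.2 and 33.8 FPKM in MC and rose (log2 change 2.29 ± 0.21, adjusted p = 2.53e-05), and the protease PRSS27 rose from 6.15 ± 0.925 to 16.1 ± 0.891 FPKM (log2 change 1.27 ± 0.16, adjusted p = 1.63e-04). Glycosylation genes gave 2 rises and 5 falls of 21, with 0 rises without MC3, 0 rises without LC1, 3 falls without MC1 and 3 falls without MC3. ST6GALNAC2, a sialyltransferase, read 22.2, 20.4 and 21.5 FPKM in LC and 4.34, 5.04 and 4.38 FPKM in MC and fell (log2 change -2.01 ± 0.12, adjusted p = 7.75e-07), and the fucosyltransferase FUT6 fell from 5.04 ± 0.801 to 2.17 ± 0.403 FPKM (log2 change -0.93 ± 0.21, adjusted p = 0.00618), with HC at 47.3 ± 14.2 FPKM.

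In the circadian clock list 10 of 21 tested genes fell and 2 rose (median -0.31). CRY1, a repressor of the clock, read 1.17, 0.852 and 1.12 FPKM in LC and 4.44, 3.31 and 3.96 FPKM in MC and rose (log2 change 1.25 ± 0.14, adjusted p = 5.84e-05). Its output gene DBP fell from 35.7 ± 3.62 to 17.5 ± 3.96 FPKM (log2 change -1.004 ± 0.16, adjusted p = 7.81e-04), and the nuclear receptor NR1D2 fell from 12.4 ± 1.198 to 7.197 ± 0.599 FPKM (log2 change -0.71 ± 0.12, adjusted p = 8.81e-04). The core activators ARNTL and CLOCK did not pass the test (log2 changes -0.0901 ± 0.13 and 0.075 ± 0.14). The labels give no time of sampling.

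Amino acid response, serine and one-carbon genes gave 5 rises and 6 falls of 18. PYCR1, the last enzyme of proline synthesis, rose from 3.62 ± 0.4604 to 11.03 ± 1.44 FPKM (log2 change 1.38 ± 0.16, adjusted p = 9.98e-05), and PSAT1 of serine synthesis rose from 6.44 ± 0.105 to 10.02 ± 1.65 FPKM (log2 change 0.56 ± 0.12, adjusted p = 0.00485). DDIT4, a brake on growth signalling, fell from 44.8 ± 6.88 to 24.6 ± 2.02 FPKM (log2 change -0.83 ± 0.14, adjusted p = 9.00e-04), and the regulator ATF4 did not pass the test (log2 change 0.021 ± 0.14). Lysosome genes gave 6 rises and 8 falls of 41, with 3 rises without MC1, 2 rises without MC3 and 3 rises without LC3. The proteases CTSL and CTSH fell from 8.74 to 2.25 FPKM and from 10.02 to 2.64 FPKM (log2 changes -1.58 ± 0.17 and -1.61 ± 0.25, adjusted p = 5.24e-05 and 7.82e-04), and ATP6V1A, a subunit of the proton pump, rose from 43.8 ± 4.38 to 71.97 ± 9.74 FPKM (log2 change 0.701 ± 0.15, adjusted p = 0.00359).

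Counts for the connective tissue markers moved with the libraries included. Of 20 tested fibroblast and matrix markers 0 rose and 2 fell (median -0.41), with 4 falls without MC1 and 7 falls without LC3. THY1, a surface protein of fibroblasts, read 8.25, 5.99 and 3.197 FPKM in LC and 1.78, 2.24 and 1.704 FPKM in MC and fell (log2 change -1.16 ± 0.26, adjusted p = 0.00688). The collagen COL1A1 read 71.7, 38.4 and 27.5 FPKM in LC and 29.6, 21.8 and 14.5 FPKM in MC and did not pass the test (log2 change -0.97 ± 0.34, adjusted p = 0.0554). With the smooth muscle level as a covariate 15 of the 20 fell (median -0.86). VWF, the clotting protein of endothelium, fell from 8.85 ± 3.098 to 4.03 ± 0.933 FPKM (log2 change -0.94 ± 0.21, adjusted p = 0.00536), and 10 of 11 tested endothelial markers did not pass the test, PECAM1 with a log2 change of -0.56 ± 0.44 among them.

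**Figure D5:**
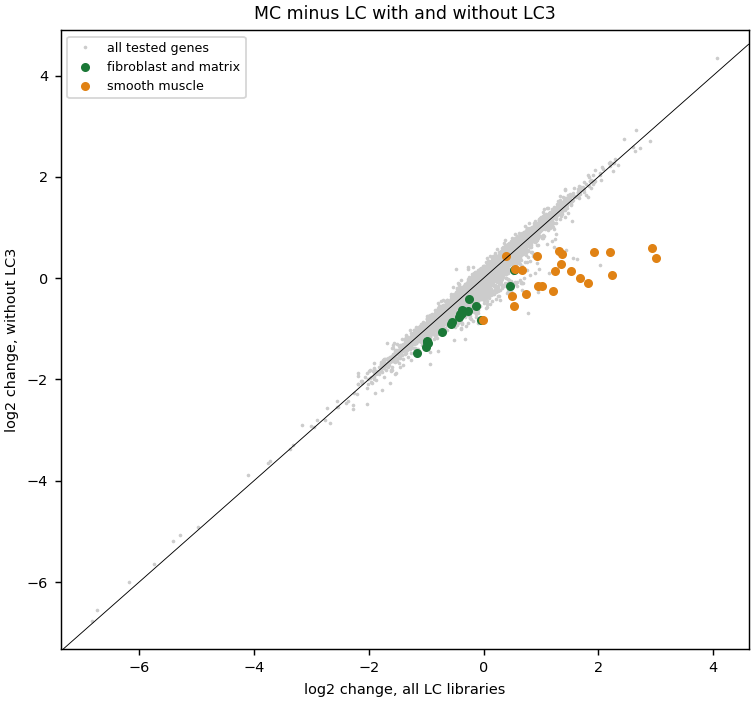
Log2 change in MC minus LC without LC3 (vertical) against the log2 change with all LC libraries (horizontal) for 11668 genes, with the 23 tested smooth muscle markers in orange and the 20 fibroblast and matrix markers in green. The axes share the MC libraries and LC1 and LC2, most genes lie near the diagonal, and most smooth muscle markers lie below it, with a median of 1.24 with LC3 and 0.14 without.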

How the data were processed

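The deposited values, 1 per gene and library, are FPKM; per the submitters' processing notes the tools were Bowtie 1.2.0 and Cufflinks 2.2.1, and the unit was inferred from Cufflinks and the range of values. Genome build, strand and scaling total: not given in the sources used here. Per the labels' protocols RNA was extracted with Trizol and prepared with an Illumina TruSeq kit. Lines with a spreadsheet date as gene name (18 to 21 in each LC or MC file, 0 in HC) were left out, and the repeated lines of 2 genes were summed. Of 18383 names, 16473 (89.6%) are in RefSeq's table for assembly ARS1.2, which gave chromosomes only. In the files 2491 genes share a locus with another gene, which makes their values uncertain: among those named here ACTG2, ATF6, BMP6, C28H10orf10, CD68, DDIT3, GNMT, PDIA6, RPS6, STAT2, ND4, ND4L, ND5 and ND6.

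A gene needed 1 FPKM in 3 or more libraries, which 11879 met, and a value in every file, which removed 211 and left 11668. On log2(FPKM + 1), pseudocount 1, limma 3.58.1 (R 4.3.3) fitted all 9 libraries together, with 1 mean for each diet and a trended, robust prior (6 residual and a median of 5.77 prior degrees of freedom). MC minus LC was tested two-sided, with Benjamini-Hochberg adjustment over the 11668 genes. Lists were described by counts and medians, with no set test. Members, lists and tests were chosen with earlier results of these data known.

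The text names the 20 largest rises and the 20 largest falls that passed the test without overlap of libraries (genes with a symbol, 2 FPKM or more in 1 diet), the 6 members of lowest adjusted p in a list, members that did not pass, cell type markers and a panel of epithelial genes. DDIT3, HSPA8, SMS and 3 genes without a symbol were chosen after their values were seen, and some genes that the rule covers are not reported here. Alternatives changed the pseudocount, filter, scaling, moderation, libraries, weights, covariate and threshold. Python 3.11.15, pandas 2.3.3, numpy 2.4.6 and matplotlib 3.10.9 made tables and figures.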

Additional observations from a re-analysis of the deposited data

How the results depend on the processing

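Across 20 other settings no named gene that passed the test changed direction where it was tested, which under the stricter filter of 5 FPKM was 154 of 181. The count of 3894 genes past the test fell to 2322 (1102 higher, 1220 lower) with LC3 as the only LC library, where the lone LC library was assumed to vary like the other diets, and to 2261 (1075 and 1186) at an adjusted threshold of 0.01. With array quality weights the count rose to 5587 (2551 higher, 3036 lower). Leaving out 1 library gave 2838 to 4043 genes past the test, 1367 to 1851 higher and 1471 to 2192 lower. Rises were 48.7% of the calls and 45.2% to 54.7% in the other settings; with equal FPKM sums 1881 rose and 1555 fell. Of 181 named genes past the test, 14 lost the call with LC3 as the only LC library and 2 at the threshold of 0.01. Calls lost without 1 library are given beside their values. List counts are given there only where they moved most for their size, and smaller moves were left out. Among those, leaving out 1 library gave 12 to 17 rises of heat shock genes, 11 to 18 of proteasome genes and 17 to 23 of splicing factors. It gave 9 to 12 rises of tRNA synthetase and scaffold genes, 7 to 10 falls of clock genes, 6 to 10 of fatty acid oxidation genes and 5 to 11 of cell death genes. Scaling moved some list counts: with equal FPKM sums rises became 8 of the 18 listed for ketogenesis and short-chain acid use, 7 of 27 tricarboxylic acid cycle genes and 9 of 14 chaperonin genes, and with quantile normalization falls became 11 of 21 glycolysis genes, 6 of 40 respiratory chain genes, 10 of 36 initiation factors, 8 of 25 desmosome and gap junction genes and 3 of 74 ribosomal protein genes. With array quality weights 14 ribosomal protein genes, 12 respiratory chain genes, 13 glycolysis genes and 7 tricarboxylic acid cycle genes fell. With the smooth muscle level as a covariate 4 endothelial markers fell; smooth muscle markers make up that covariate and are not counted. The cause of these moves was not tested.

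Whether the replicate numbers pair the libraries is not settled by these values. Across genes, deviations from the diet means correlated at 0.384 for MC1 and LC1, 0.0794 for MC2 and LC2, and 0.504 for MC3 and LC3. MC1 and MC3 were closest to the LC library of the same number, and MC2 was closer to LC1 (0.265). With the number as a replicate block 4613 genes passed the test (2241 higher, 2372 lower), and falls became 6 of 20 fibroblast markers, 8 of 21 glycolysis genes and 13 of 41 lysosome genes.

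The files hold no counts, so changes of low genes could not be set against counting error, and 3 libraries a diet limit the precision.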

Other observations

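Mitochondrial transcripts and a few abundant genes differed in whether the files list them. ND4 and ND4L, mitochondrial subunits of respiratory complex I, read 14852, 13705 and 15234 FPKM and 11261, 9712 and 11962 FPKM in LC1, LC2 and LC3, and neither is listed in any MC file, while HC read 12080 to 15908 and 9242 to 12383 FPKM. EEF1A1, the elongation factor that brings tRNA to the ribosome, read 2059, 1915 and 1879 FPKM in MC1, MC2 and MC3 and is not listed in any LC file, while HC read 2434 to 2697 FPKM. Among 7 tested mitochondrial genes ND6 rose from 3121 ± 568 to 6017 ± 384 FPKM (log2 change 0.96 ± 0.18, adjusted p = 0.00217) and ND5 rose from 4002 ± 306 to 6454 ± 604 FPKM (log2 change 0.69 ± 0.18, adjusted p = 0.0107), and ND5's call was lost without MC1 (adjusted p = 0.05997). ND5 and ND6 share a locus in the files.

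In all, 112 genes are listed in every LC file and no MC file, 12 of them at 1 FPKM or more in all 3 and 6 of those 12 in every HC file. The reverse held for 56 genes, with 10 at 1 FPKM or more and 7 of those 10 in every HC file. No fold was computed for these genes.

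Arginine and nitric oxide genes gave 3 rises and 1 fall of 8 and coenzyme A genes 1 rise and 2 falls of 9. DDAH2, which clears an inhibitor of nitric oxide synthase, rose from 6.78 ± 0.796 to 11.5 ± 1.04 FPKM (log2 change 0.69 ± 0.12, adjusted p = 0.00104).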
